A study of Mus musculus with 22 samples.

Results

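The 10 transcription factors described here, Spi1, Runx1, Gata1, Gata2, Gata3, Tal1, Ikzf1, Cebpa, Cebpb and Cebpe, were taken by symbol from the 41388 genes of the deposited tables. Each symbol matched 1 gene identifier. They were followed through 22 RNA-seq libraries of stromal cells sorted from tumors by TdTomato and CD45, in 4 populations and 2 genotypes, and the question was whether double positive cells carried the factors of progenitors or of mature blood cells. All mice were C57BL/6, labelled as postnatal day 56, and carried the Ai9 TdTomato reporter and Osx-cre, a Cre under a tetracycline-responsive Osx (Sp7) promoter. TdTomato thus marks cells with present or past Cre activity and not present Osx expression. The paper states that its later studies used mice fed doxycycline, a diet given until weaning to suppress Cre. Its account of the sequencing does not repeat this. The populations were TdTOSX single positive (TdTOSX+;CD45-), double positive (TdTOSX+;CD45+), CD45 single positive (TdTOSX-;CD45+) and double negative (TdTOSX-;CD45-). For each genotype, WT (Osx-cre;Ai9) and Cdh2-cKO;Ai9 (a conditional deletion of Cdh2 on top of the same Cre and reporter), there were 2 libraries of TdTOSX single positive cells and 3 of every other population. The labels call the tumor orthotopic MMTV-BO1, the design text of the series calls it subcutaneous, and the methods describe sorting of the stroma away from GFP-labelled tumor cells. The preparations sequenced had been selected on RNA integrity. No mice without tumor or without Cre were analysed here, and nothing in the labels links a library to a mouse, so the spread between libraries is called that and no more.

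Several facts of the whole series bear on the values below. The libraries held between 16594228 and 26784003 counts on genes (median 18977040), and 3 counts, taken as the smallest signal, correspond to between 0.103 and 0.201 normalized CPM (CPM on the TMM-scaled library size, the scale of every level given below unless RPKM is named). This floor covers counting error only. Cdh2, the gene named by the genotype, was not lower in the CD45- libraries labelled Cdh2-cKO. It had 9.13 and 5.19 CPM in the WT and 17.2 and 13.1 CPM in the Cdh2-cKO TdTOSX single positive libraries, and 6.02, 7.47 and 4.52 CPM against 12.5, 18.4 and 14.2 CPM in the double negative libraries. The counts are per whole gene, and which exons the allele loses is not given in the sources used here, so the genotype is given as labelled throughout. Sp7 reached at most 1 count in any library. Ptprc, which encodes CD45, lay between 472 and 1821 CPM in the 12 CD45+ libraries and between 2.45 and 337 CPM in the 10 CD45- libraries. A pair of WT libraries stood apart from the rest. Double negative replicate 3 had the 337 CPM of Ptprc with 10587 CPM of Lyz2, a macrophage gene, where the other double negative libraries had 126 to 2186 CPM of Lyz2. CD45 single positive replicate 2 had 5848 CPM of summed B cell markers and 514 CPM of the T cell gene Cd3e, where the other CD45 single positive libraries had at most 45.5 and 15 CPM. In bulk RNA from sorted cells, fewer cells of a type and less RNA per cell cannot be told apart.

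The members are DNA-binding regulators that act in combination during blood formation. Runx1, Tal1 and Gata2 are required for blood stem and progenitor cells, Gata1 drives red cells, megakaryocytes, eosinophils and mast cells, and Gata3 drives T cells and innate lymphocytes. Spi1 encodes PU.1, the ETS factor of macrophages, granulocytes and B cells. Ikzf1 encodes Ikaros, a zinc finger factor of lymphoid cells that other leukocytes also carry. The C/EBP factors act in sequence in myeloid cells, Cebpa in early progenitors and mature macrophages, Cebpe in the granule stage of neutrophils, and Cebpb in monocytes and in inflammation. Some of these factors are not restricted to blood: Gata2 is made by endothelial cells, Gata3 by mammary luminal cells, and Runx1 and Cebpb by many stromal cells.

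Start-site windows of 300 bases (RefSeq, GRCm38.p6, 250 bases before to 50 after a start) were found for 8 of the 10 members, 12 windows in all, and for neither Spi1 nor Cebpe. Those shown are of members called between CD45+ and CD45- cells (below) that have more than 1 start, and hold a match to a motif of a member or, for Runx1, both starts. The letters searched on both strands were AGATAA for GATA factors, GAGGAAGT for PU.1, TGTGGT for RUNX factors, TTNNGNAA for C/EBP factors and CAGCTG for the E-box of Tal1. Of 32851 windows of the same length over the genome, 11.2% held the GATA letters, 3.2% the PU.1 letters, 16.8% the RUNX letters, 40.7% the C/EBP letters and 16.3% the E-box letters. Among the 12 member windows, 1 held the GATA letters, 0 the PU.1 letters, 1 the RUNX letters, 4 the C/EBP letters and 2 the E-box letters. In the sequences, written 5′ to 3′ on the strand of the gene, capitals mark these matches, and no match overlapped another. In the distal Runx1 window (chr16:92826025-92826324, minus strand) both marked stretches read ACCACA, the RUNX letters on the other strand, and the proximal window (chr16:92697280-92697579, minus strand) held none of the letters searched. The Tal1 window (chr4:115056176-115056475, plus strand) holds the GATA letters as TTATCT directly followed by the C/EBP letters. The Gata2 window (chr6:88198414-88198713, plus strand) holds the C/EBP letters first and the E-box second, and that of Ikzf1 (chr11:11689927-11690226, plus strand) holds the C/EBP letters.
Runx1, distal start: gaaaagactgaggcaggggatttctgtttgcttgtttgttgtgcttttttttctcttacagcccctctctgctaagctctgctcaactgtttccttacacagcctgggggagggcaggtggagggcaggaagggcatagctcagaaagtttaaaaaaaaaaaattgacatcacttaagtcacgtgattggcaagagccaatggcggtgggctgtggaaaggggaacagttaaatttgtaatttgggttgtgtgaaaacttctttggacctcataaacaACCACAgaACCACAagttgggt
Runx1, proximal start: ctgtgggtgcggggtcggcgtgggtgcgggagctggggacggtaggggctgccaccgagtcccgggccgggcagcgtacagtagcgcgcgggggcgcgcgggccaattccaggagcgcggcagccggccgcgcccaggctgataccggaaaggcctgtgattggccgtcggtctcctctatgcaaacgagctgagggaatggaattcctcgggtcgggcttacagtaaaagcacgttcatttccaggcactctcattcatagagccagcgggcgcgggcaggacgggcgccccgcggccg
Tal1, window 1: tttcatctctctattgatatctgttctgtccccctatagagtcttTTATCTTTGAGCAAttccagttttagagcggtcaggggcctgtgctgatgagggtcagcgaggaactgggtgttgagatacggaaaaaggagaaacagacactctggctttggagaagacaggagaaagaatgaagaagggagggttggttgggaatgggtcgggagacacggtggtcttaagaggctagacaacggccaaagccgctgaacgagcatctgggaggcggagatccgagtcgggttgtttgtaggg
Gata2, window 2: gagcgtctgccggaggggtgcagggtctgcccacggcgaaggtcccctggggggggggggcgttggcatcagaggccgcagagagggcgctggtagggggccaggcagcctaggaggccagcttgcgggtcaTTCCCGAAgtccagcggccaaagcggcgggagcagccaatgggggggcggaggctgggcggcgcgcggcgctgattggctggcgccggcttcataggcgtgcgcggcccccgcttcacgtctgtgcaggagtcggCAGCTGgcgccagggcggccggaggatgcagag
Ikzf1, window 2: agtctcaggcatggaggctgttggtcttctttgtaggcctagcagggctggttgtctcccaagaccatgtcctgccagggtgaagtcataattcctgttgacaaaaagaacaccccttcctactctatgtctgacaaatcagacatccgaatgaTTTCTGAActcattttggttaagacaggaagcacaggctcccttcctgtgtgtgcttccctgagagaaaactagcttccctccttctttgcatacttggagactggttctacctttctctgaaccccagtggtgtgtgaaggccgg
A match is a description of letters and not a bound site. The counts are per gene, so for Runx1, Gata2, Tal1 and Ikzf1, which have 2 windows each, the levels below do not tell which start was used.

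Per gene length, the double positive cells ranked Cebpb, Cebpa, Spi1 and Ikzf1 at the top and Tal1, Gata2 and Gata1 at the bottom. The level, as normalized RPKM (normalized CPM per kilobase of gene), was 19.5 ± 8.57 (SD, n = 6) for Cebpb, 13.9 ± 3.94 for Spi1, 13.7 ± 2.9 for Cebpa and 11 ± 1.91 for Ikzf1. These 4 lay within their spread of each other. Runx1 followed at 4.82 ± 0.935 RPKM, and its highest library (5.94) lay below the lowest of each of the upper 4. Gata3 had 2.02 ± 2.04, Cebpe 1.31 ± 0.618, Tal1 0.4 ± 0.16, Gata2 0.147 ± 0.0729 and Gata1 0.0437 ± 0.0957 RPKM. In CD45 single positive cells the medians gave nearly the same order, from 22.4 RPKM for Cebpb, 14 for Cebpa, 11.6 for Ikzf1 and 11.1 for Spi1 to 0.297 for Gata2 and 0.0274 for Gata1. The double negative order was different, with Gata3 (median 9.07 RPKM) and Runx1 (6.58) at the top, and TdTOSX single positive cells were led by Runx1 (9.41) and Cebpb (7.45).

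**Figure D1:**
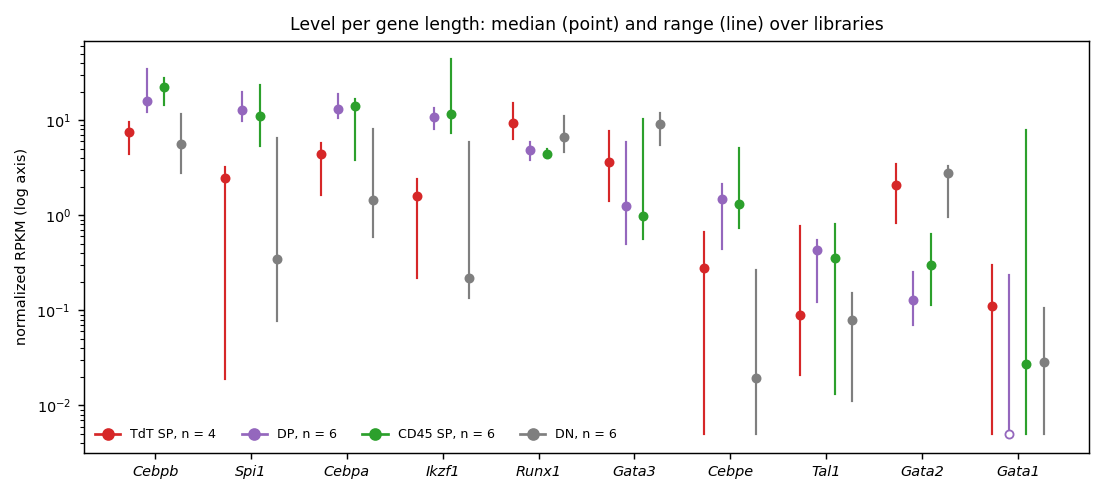
Level of each member per gene length (normalized RPKM, log axis) in TdTOSX single positive (TdT SP, 4 libraries), double positive (DP), CD45 single positive (CD45 SP) and double negative (DN) cells (6 libraries each), with points for medians and lines for ranges, values of 0 being drawn at 0.005 (open where the median is 0). Double positive and CD45 single positive cells lie beside each other for each member, with medians of 12.9 and 11.1 RPKM for Spi1.

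The first comparison asked which of the factors separate the CD45+ from the CD45- populations. Spi1, Ikzf1, Cebpa, Cebpb, Cebpe and Tal1 were higher in CD45+ cells and Runx1, Gata2 and Gata3 were lower, so all 9 members that passed the filter on low counts (over 1 CPM, in 2 or more libraries) were called. Of the 15018 genes tested, 63.7% were called in this contrast (edgeR's quasi-likelihood test over all 22 libraries, Benjamini-Hochberg adjusted p of at most 0.05), 32.6% higher and 31.1% lower. With the pair of libraries that stand apart left aside, all 9 were called again. A call is common in this contrast, so sizes and levels are given below. Gata1 did not pass the filter, having more than 1 CPM in 1 library.

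Among the myeloid factors, Spi1 (ENSMUSG00000002111, chromosome 2 from 91082390 to 91115756, GRCm38) had 26.7 CPM in its lowest, 34.8 in its median and 53.9 in its highest double positive library. Its CD45 single positive libraries ran from 14.4 through 29.9 to 63.4 CPM. The TdTOSX single positive libraries had 0.051 and 6.74 CPM in WT and 8.57 and 6.47 CPM in Cdh2-cKO mice, and the double negative libraries had 0.23, 3.63 and 17.3 CPM and 0.999, 0.873 and 0.208 CPM. Of the 12 CD45+ libraries, 11 lay above every CD45- library, the exception being the CD45 single positive library with B cell transcripts (14.4 CPM), which lay under double negative replicate 3 (17.3 CPM). The log2 fold change was 3.37 (standard error 0.615, adjusted p = 0.000134). Within the CD45- libraries, Spi1 moved with the monocyte and macrophage markers (11 genes, among them Csf1r, Adgre1 and Lyz2), whose summed level was 171 CPM in the library with 0.051 CPM of Spi1 and 21153 CPM in the library with 17.3 CPM. The part of such transcripts in the Spi1 level of CD45- cells was not tested.

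Cebpa (ENSMUSG00000034957, chromosome 7 from 35119293 to 35121928) ran from 27.7 through a median of 34.9 to 49.9 CPM in double positive and from 10.1 through 36.8 to 44.6 CPM in CD45 single positive cells. It had 4.34, 12, 15 and 11 CPM in the TdTOSX single positive libraries, and in double negative cells it ran from 1.55 through 3.8 to 21.5 CPM. Again 11 of 12 CD45+ libraries stood above every CD45- library. The exception was again the CD45 single positive library with B cell transcripts (10.1 CPM), which lay under double negative replicate 3 (21.5 CPM) and under the TdTOSX single positive libraries with 12, 15 and 11 CPM. The log2 fold change was 2.28 (standard error 0.307, adjusted p = 6.19e-06).
Cebpb (ENSMUSG00000056501, chromosome 2 from 167688915 to 167690418) had between 18.4 and 51.8 CPM in the double positive, between 21.7 and 41.3 in the CD45 single positive and between 6.65 and 14.5 CPM in the TdTOSX single positive libraries. Double negative cells had 4.2 to 17.3 CPM. Its CD45+ and CD45- libraries did not overlap, as for 14.7% of all genes tested, and the log2 fold change was 1.62 (standard error 0.258, adjusted p = 3.47e-05).
Cebpe (ENSMUSG00000052435, chromosome 14 from 54710360 to 54712174) was low throughout. It ran from 0.552 through 1.84 to 2.62 CPM in double positive and from 0.902 through 1.62 to 6.36 CPM in CD45 single positive cells, and it had 0, 0.0387, 0.651 and 0.82 CPM in TdTOSX single positive cells. In double negative cells 5 of 6 libraries were under the floor of 3 counts and the other, WT replicate 3, had 0.33 CPM. The fitted log2 difference was 4.35 (standard error 0.583, adjusted p = 5.82e-06), and it depends on the prior count for libraries near 0.

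Ikzf1 (ENSMUSG00000018654, chromosome 11 from 11685003 to 11772926) had 57.9, 74.8 and 62.9 CPM in WT and 61.9, 76.6 and 46.8 CPM in Cdh2-cKO double positive cells. The CD45 single positive libraries had 71.3, 251 and 75.2 CPM and 63, 50.3 and 42.5 CPM, the 251 CPM being in the library with B and T cell transcripts. TdTOSX single positive cells had 1.28, 9.92, 13.7 and 8.61 CPM, and double negative cells ran from 0.781 through 1.26 to 34.4 CPM. All CD45+ libraries exceeded all CD45- libraries, and the fitted difference was 3.71 on the log2 scale (standard error 0.532, adjusted p = 1.24e-05). Tal1 (ENSMUSG00000028717, chromosome 4 from 115056426 to 115071755), a helix-loop-helix factor of stem, red and megakaryocytic cells, was higher in CD45+ cells by 1.71 on the log2 scale (standard error 0.612, adjusted p = 0.0217). Its level was 0.535, 1.87 and 2.4 CPM (lowest, median and highest) in double positive, 0.0573, 1.56 and 3.5 in CD45 single positive cells, while double negative cells had 0.0485, 0.347 and 0.665 CPM. It had 0.102, 3.37, 0.685 and 0.0911 CPM in TdTOSX single positive cells. The groups overlapped, with 1 CD45+ library above every CD45- library. Without WT TdTOSX single positive replicate 2, Tal1 was at 2.71 (adjusted p = 0.00265). The call was lost without Cdh2-cKO TdTOSX single positive replicate 2 (log2 fold change 1.51, adjusted p = 0.0606).

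**Figure D2:**
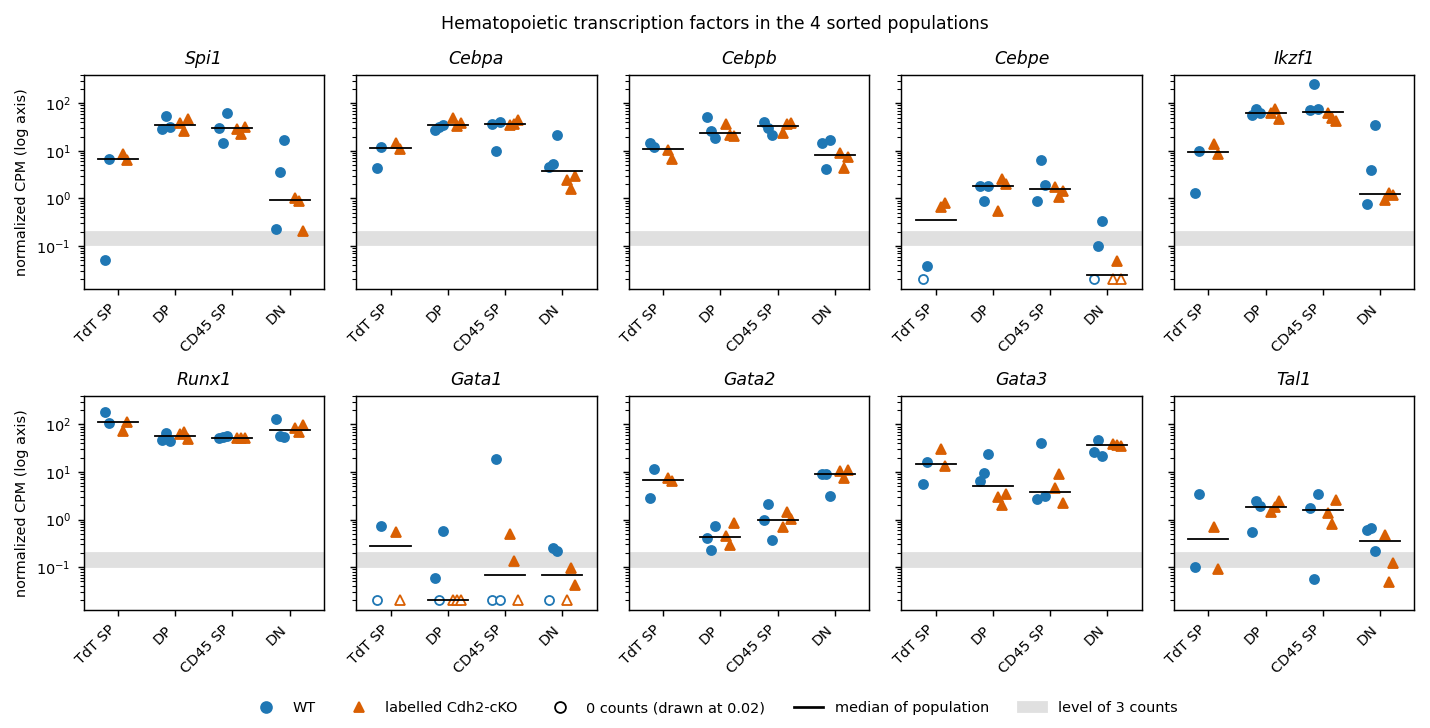
Normalized CPM (log axis) of the 10 members in each of the 22 libraries, by population, with circles for WT, triangles for mice labelled Cdh2-cKO, black lines for the median of a population, grey for the level of 3 counts (0.103 to 0.201 CPM) and open symbols, drawn at 0.02, for libraries with 0 counts. Double positive and CD45 single positive libraries overlap for each member, and Gata2 lies between 0.234 and 2.12 CPM in them against 2.81 to 11.5 CPM in the CD45- libraries.

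The members that were lower in CD45+ cells were Gata2, Runx1 and Gata3. Gata2 (ENSMUSG00000015053, chromosome 6 from 88193891 to 88207032) had 0.416, 0.234 and 0.739 CPM in WT and 0.442, 0.291 and 0.842 CPM in Cdh2-cKO double positive cells. The CD45 single positive libraries held 0.963, 2.12 and 0.377 CPM and 0.714, 1.47 and 1.02 CPM. TdTOSX single positive cells had 2.81, 11.5, 7.44 and 6.38 CPM. The double negative libraries had 9.24, 9.26 and 3.19 CPM in WT and 10.4, 7.47 and 11.1 CPM in Cdh2-cKO mice. No CD45+ library reached the lowest CD45- library, and the log2 fold change was -3.36 (standard error 0.343, adjusted p = 2.38e-07). Endothelial cells and mast cells make Gata2, and their markers were also lower in CD45+ cells, 8 of 8 endothelial genes and 8 of 9 mast cell and basophil genes, beside 31.1% of all genes. The summed endothelial markers ran from 44.7 to 399 CPM in double negative and from 65.6 to 221 CPM in TdTOSX single positive cells, against 9.42 to 38 CPM in double positive cells. The CD45 single positive libraries spanned 10.9 to 217 CPM, the 217 CPM being in WT replicate 2, which also had the highest Gata2 of the CD45+ libraries, 2.12 CPM. That sum rests mainly on 1 gene of the list, Pecam1. In WT CD45 single positive cells Pecam1 had a mean of 76.6 CPM, and each other endothelial gene at most 1.25 CPM. The lowest endothelial sum among double negative cells, 44.7 CPM, was in WT replicate 3, which also had the lowest Gata2, 3.19 CPM. TdTOSX single positive libraries did not follow that order. Their endothelial sums were 135, 221, 90.8 and 65.6 CPM beside 2.81, 11.5, 7.44 and 6.38 CPM of Gata2. The summed mast cell and basophil markers (among them the proteases Tpsb2 and Cma1) ran from 32.5 to 904 CPM in TdTOSX single positive, from 11.9 to 289 in double negative and from 9.36 to 31.6 CPM in double positive cells. The CD45 single positive libraries spanned 6.79 to 151 CPM, again highest in WT replicate 2. In the TdTOSX single positive libraries, in the order given for Gata2, these sums were 32.5, 904, 691 and 243 CPM. WT double negative replicate 3, with the lowest Gata2 of its population, had 149 CPM. The part of endothelial and mast cell transcripts in the Gata2 level was not tested.

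Runx1 (ENSMUSG00000022952, chromosome 16 from 92601466 to 92826149) was present in every library. It ran from 45.1 through 57.1 to 70.2 CPM in double positive, from 50.8 through 52.3 to 58.3 CPM in CD45 single positive cells. Double negative cells ran from 55.4 through 77.8 to 131 CPM, and there were 179, 108, 74.2 and 114 CPM in TdTOSX single positive cells. The groups overlapped, with 7 of 10 CD45- libraries above every CD45+ library. The log2 fold change was -0.83 (standard error 0.156, adjusted p = 0.000178), the smallest in size among the 9. The library with the highest Runx1 also had the highest sum of fibroblast markers, 59707 CPM of 7 genes such as Col1a1 and Dcn, whose part in the Runx1 level was not tested. Among its relatives, Runx2, the factor of bone cells, was lower in CD45+ cells (log2 fold change -0.95, adjusted p = 0.00109), while Runx3, a factor of T cells and macrophages (3.16, adjusted p = 4.04e-05), and Cbfb, the partner that all RUNX factors share (0.79, adjusted p = 4.52e-05), were higher.

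Gata3 (ENSMUSG00000015619, chromosome 2 from 9857078 to 9890034) had 25.7, 47.6 and 21.7 CPM in WT and 39.6, 36.5 and 35.7 CPM in Cdh2-cKO double negative cells. TdTOSX single positive cells had 5.61, 15.9, 30.9 and 13.2 CPM. The double positive libraries had 6.42, 9.59 and 23.6 CPM in WT and 3.04, 1.99 and 3.49 CPM in Cdh2-cKO mice, and the CD45 single positive libraries 2.71, 40.7 and 3.07 CPM and 4.67, 9.1 and 2.24 CPM. Of the 12 CD45+ libraries, 7 lay under every CD45- library, and those with the highest Gata3 overlapped with them. The log2 fold change was -1.62 (standard error 0.431, adjusted p = 0.00324). Gata6, a GATA factor outside blood, was likewise lower in CD45+ cells (log2 fold change -4.05, adjusted p = 5.5e-06). Among CD45+ cells, the 3 libraries with the most Gata3, all WT, were those with the most transcripts of T cells, and the other libraries did not follow that order. The T cell markers (9 genes) summed to 2684 CPM in the CD45 single positive library with 40.7 CPM of Gata3, and to 58.6, 246 and 562 CPM in the WT double positive libraries with 6.42, 9.59 and 23.6 CPM. Cdh2-cKO CD45 single positive replicate 2, next in Gata3 with 9.1 CPM, had 19.8 CPM of these markers, and replicate 1, with 4.67 CPM of Gata3, had 88 CPM. Among the Cdh2-cKO double positive libraries the highest Gata3 (3.49 CPM) stood beside the lowest T cell sum (19.7 CPM). In the double negative libraries they summed to 5.73 to 32.5 CPM beside the high Gata3 levels, so that T cell markers were low there. The mammary epithelial and tumor cell markers were divided. Krt8, Krt18, Krt19 and Esr1 were lower in CD45+ cells (log2 fold change -3.41, -3.51, -7.08 and -1.23), whereas Cdh1 and Epcam were higher (4.07 and 4.96, adjusted p = 3.46e-05 and 0.000165). In double negative cells Krt8 and Krt18 ran up to 413 and 1570 CPM, while the medians of Cdh1 and Epcam were 4.51 and 0.0242 CPM and Foxa1 and Elf5 were at most 0.125 CPM. The part of either cell type in the Gata3 level was not tested.

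**Figure D3:**
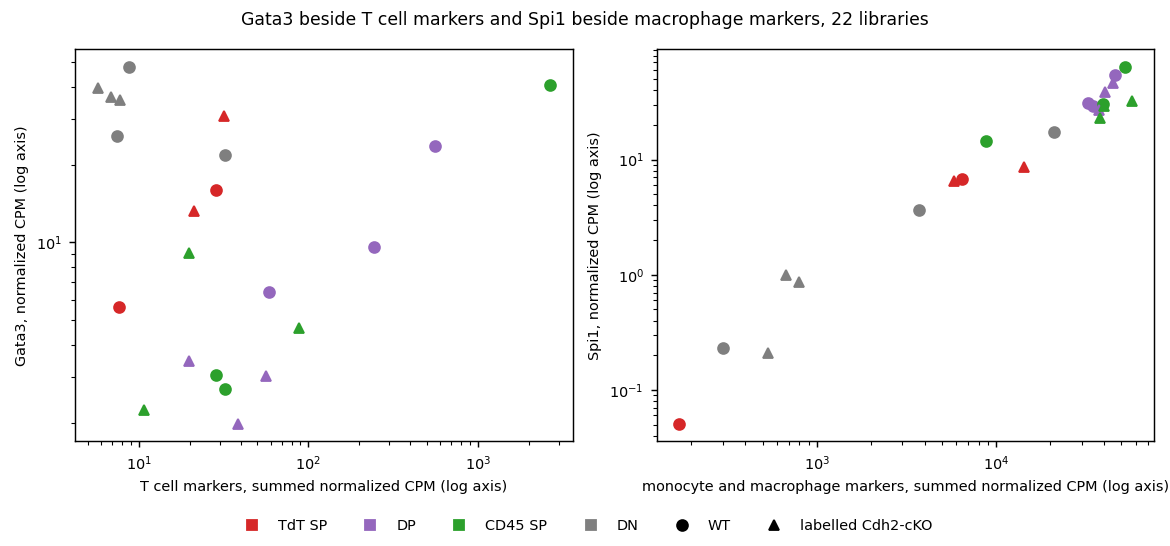
Gata3 against the summed T cell markers (left) and Spi1 against the summed monocyte and macrophage markers (right), in normalized CPM on log axes, 1 point per library, colored by population, with circles for WT and triangles for mice labelled Cdh2-cKO. Gata3 is high both in CD45+ libraries with many T cell transcripts (2684 CPM of markers, 40.7 CPM of Gata3) and in double negative libraries with few, while Spi1 is lowest (0.051 CPM) in the library with 171 CPM of macrophage markers.

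Gata1 (ENSMUSG00000031162, chromosome X from 7959260 to 7978071) was close to absent. It had 1, 0 and 11 counts in the WT and 0 counts in each Cdh2-cKO double positive library, where 3 counts would be 0.146 to 0.18 CPM. The CD45 single positive libraries had 0, 332 and 0 counts and 9, 2 and 0 counts, the 332 counts (19 CPM) being in the library with B and T cell transcripts. The CD45- libraries held at most 19 counts (0.736 CPM). In the library with 332 counts, some genes of eosinophils were also the highest of all 22, with 99.9 CPM of Ccr3, 62.8 CPM of Prg2 and 28.5 CPM of Siglecf, which were chosen after their values were seen. Epx, also a gene of eosinophils, did not pass the filter and had a mean of 0.248 CPM in WT CD45 single positive cells. The summed mast cell and basophil markers of that library, 151 CPM, were the highest among CD45+ libraries. WT CD45 single positive replicate 1 had 102 CPM of these markers beside 0 counts of Gata1. TdTOSX single positive libraries had 32.5, 904, 691 and 243 CPM of them beside 0, 0.736, 0.548 and 0 CPM of Gata1. The double positive library with 11 counts of Gata1 had 5.22 CPM of Prg2, the highest among double positive libraries. Whether eosinophils, mast cells or basophils carried the Gata1 counts was not tested. Klf1, a red cell partner of Gata1, was low too and reached at most 1.08 CPM in double positive cells.

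**Figure D4:**
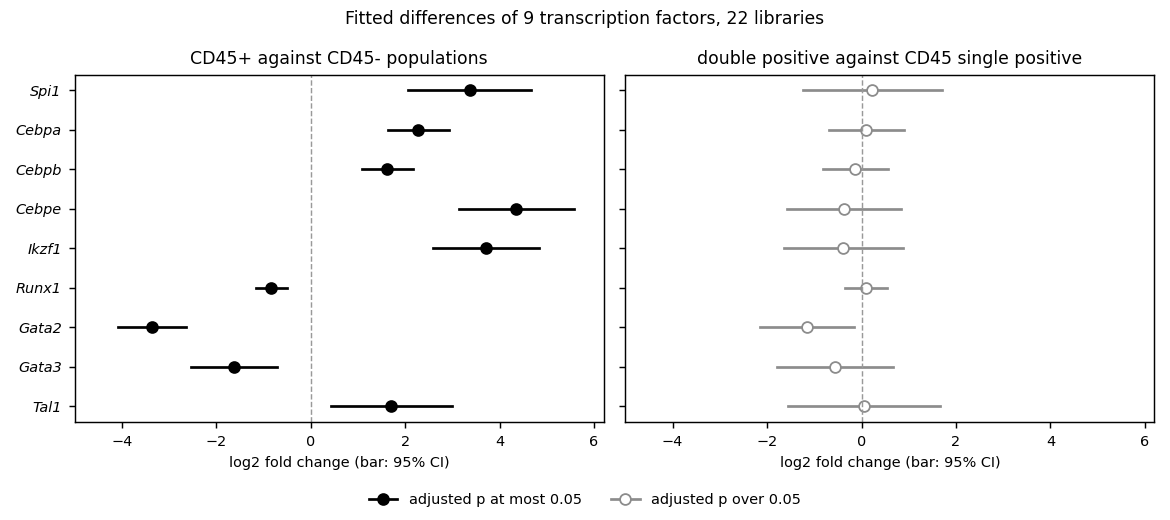
Log2 fold change (points) with 95% confidence interval (bars) of the 9 members tested, for CD45+ against CD45- populations (left) and double positive against CD45 single positive cells (right), filled where the adjusted p is at most 0.05. All 9 intervals lie off 0 on the left, from -3.36 for Gata2 to 4.35 for Cebpe, and none passes the adjusted threshold on the right.

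Next, double positive cells were compared with CD45 single positive cells, to ask whether TdTOSX+ leukocytes differ in these factors from other leukocytes sorted from such tumors. Of the 9 members tested 0 were called, and over all genes 0.00666% were called, a single gene (Duoxa2, named after its value was seen), with 609 genes at an unadjusted p under 0.05. With voom and with DESeq2, 0 members were called too, and for 0 of 9 did the libraries of the groups not overlap, against 0.0932% of all genes. For Runx1 the log2 fold change was 0.09 with a 95% interval from -0.35 to 0.53, the narrowest of the set. The intervals ran from -0.69 to 0.89 for Cebpa (0.1) and from -0.82 to 0.56 for Cebpb (-0.13). Thus for these 3 genes a difference of more than 1 on the log2 scale lay outside the interval. For the others larger differences are within reach of the error, since the intervals ran from -1.25 to 1.71 for Spi1 (0.23), from -1.65 to 0.88 for Ikzf1 (-0.39), from -1.58 to 0.84 for Cebpe (-0.37), from -1.55 to 1.66 for Tal1 (0.05) and from -1.8 to 0.66 for Gata3 (-0.57). Gata2 had the largest difference, -1.16 (interval from -2.16 to -0.16, unadjusted p = 0.025, adjusted p = 1 by edgeR), and its libraries overlapped. The library with B and T cell transcripts weighs on several of these values. Without it and double negative replicate 3, Gata3 was 0.64, Ikzf1 0.04, Cebpe 0.18, Cebpa -0.1 and Tal1 -0.23, with 0 members called again. Within WT mice and within mice labelled Cdh2-cKO, 0 of 9 members and 0 of all genes were called, with 668 and 723 genes at an unadjusted p under 0.05. For 0 members did the libraries not overlap in either genotype, against 4.55% and 18% of all genes, and the difference of this contrast between the genotypes likewise gave 0 members and 0 genes (655 at an unadjusted p under 0.05).

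Set against the mean of the other 3 populations, double positive cells had 5 members higher and 3 lower, where 43.2% of all genes were called, 20.8% higher and 22.4% lower. For 0 members did the double positive libraries lie apart from all others, against 0.0266% of genes. Since the CD45 single positive libraries are part of this mean, and the double positive libraries are also in the contrast of CD45+ with CD45- cells, the calls are not separate evidence. The log2 fold changes were 2.4 for Spi1, 2.21 for Ikzf1, 1.59 for Cebpa, 1 for Cebpb and 2.65 for Cebpe (adjusted p = 0.0023, 0.0013, 0.000492, 0.00545 and 0.000583). Gata2 was lower by -3.02 (adjusted p = 5.68e-05), Gata3 by -1.46 (adjusted p = 0.0311) and Runx1 by -0.49 (adjusted p = 0.0338). Tal1, at 1.17, was not called (adjusted p = 0.137). The calls of Gata3 and Runx1 were each lost in 8 of 29 alternatives, 7 and 6 of them leaving out 1 library.

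Lists of progenitor and mature cell markers were read beside the members. No progenitor population was among the libraries, and CD45 itself was used for sorting. Calls between CD45+ and CD45- cells therefore cannot place double positive cells between progenitors and mature cells. Levels in double positive cells are given as well. Of 10 surface markers of stem and progenitor cells, 8 were tested between CD45+ and CD45- cells. Over all genes tested, 32.6% were called higher in this contrast and 31.1% lower, the shares to set beside each list count below. Of the 8 markers, 3 were higher and 3 lower, near those shares (median log2 fold change 0.72, against 0.06 over all genes). Those that were lower, Cd34 (-4.9), Procr (-2.23) and Ly6a (-2.49), are also made by endothelial and other stromal cells, and those that were higher, Cd48 (3.58), Slamf1 (4.22) and Ly6d (3.11), are also made by mature leukocytes. Ly6d had 468 CPM in the CD45 single positive library with B cell transcripts and at most 1.17 CPM in every other library, with medians of 0.201 CPM in double positive and 0.349 CPM in double negative cells. Slamf1 was highest in that library too (38.9 CPM) and ran from 0 to 7.7 CPM in double positive cells. Kit, the stem cell factor receptor, had 3.51 CPM in its lowest, 4.21 in its median and 8.65 CPM in its highest double positive library, and from 1.28 to 13.5 CPM in CD45 single positive cells. Its log2 fold change between CD45+ and CD45- cells was -0.05 (adjusted p = 0.921). Double negative cells had Kit means of 4.39 CPM in WT and 5.97 CPM in Cdh2-cKO mice, so Kit was not particular to CD45+ cells. Flt3, which progenitors share with dendritic cells, had 2.77 to 9.8 CPM in double positive cells.

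The stem and progenitor transcription factors behaved unevenly. Of 12 tested, 4 were higher in CD45+ cells and 6 lower, beside 32.6% and 31.1% of all genes. Lmo2, a partner of Tal1 (log2 fold change 2.84), Lyl1, its close relative (3.18), Hhex (2.69) and Etv6 (0.28) were higher. Hoxa9 (-5.99), Hoxa10 (-5.66), Mecom (-5.2), Erg (-4.78), Mycn (-3.91) and Meis1 (-3.42) were lower. These calls also depend on the level in CD45- cells. Double negative means in WT and Cdh2-cKO mice were 55.3 and 86.5 CPM for Meis1 and 6.6 and 4.05 CPM for Hoxa10. They were 4.78 and 3.76 CPM for Mecom and 3.12 and 3.04 CPM for Erg. Lmo2, Lyl1 and Hhex were also present in CD45 single positive cells, with Cdh2-cKO means of 32.1, 9.33 and 25.7 CPM. In double positive cells the median was 0.059 CPM for Hoxa9, 0.0568 for Mecom, 0 for Erg, 0.569 for Myb and 0.102 for Hlf, while Lmo2 and Hhex each had a median of 30.9 CPM and Lyl1 11.8 CPM. Meis1 had means of 3 CPM in WT and 4.58 CPM in Cdh2-cKO double positive cells, and Etv6 had 37.2 and 48.1 CPM. The means of Hoxa10, Mycn and Gfi1 there were at most 0.718 CPM. The primary granule genes of promyelocytes were near the floor. Mpo had 0.0485 to 0.662 CPM, Elane at most 0.175, Ctsg at most 0.178 and Ms4a3 at most 0.475 CPM in double positive cells. Prtn3, the exception in that list, ran from 1.58 to 56.3 CPM.

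The lists of mature cells were at other levels, and their counts again stand beside 32.6% of all genes higher and 31.1% lower. All 11 monocyte and macrophage markers were higher in CD45+ cells (median log2 fold change 3.34), and their sum in double positive cells was 32507 CPM in the lowest, 38891 in the median and 46187 CPM in the highest library. Lyz2 alone had 14374 to 29949 CPM, Csf1r 867 to 1366 CPM and Ccr2, the receptor of recruited monocytes, 958 to 1835 CPM. The sum of the stem and progenitor markers in the same libraries was 290 to 568 CPM, of which Cd48 had 247 to 344 CPM. All 9 T cell markers (3.53) and 4 of 5 tested B cell markers (4.11) were higher in CD45+ cells as well, as were 6 of 7 dendritic cell markers (3.63), Zbtb46 being lower, and 5 of 6 tested markers of mature neutrophils (2.69). The T and B cell values include the CD45 single positive library with 2684 and 5848 CPM of these markers. Median T cell sums were 57.5 CPM in double positive, 30.3 in CD45 single positive, 24.8 in TdTOSX single positive and 7.6 in double negative cells. Among myeloid factors outside the members, 6 of 10 were higher in CD45+ cells, among them Irf8 (2.29), Irf5 (3.19) and Batf3 (2.13), Zbtb46 was lower (-0.93) and 3 of 10 were not called, Cebpd, Klf4 and Bhlhe40. Of the 16 lymphoid factors tested, 7 were higher and 2, Ebf1 and Id3, lower. Of the other lists, 5 of 6 tested erythroid markers, 7 of 7 fibroblast markers, 4 of 6 tested mammary epithelial and tumor cell markers and 2 of 5 tested megakaryocyte markers were lower in CD45+ cells. Higher were 1, 0, 2 and 2 genes of those lists, 3 of 5 tested secondary granule genes of myelocytes (1 lower), 2 of 5 tested type 2 and innate lymphoid markers (2 lower), 2 of 5 tested erythroid and megakaryocyte transcription factors (1 lower) and 5 of 13 tested relatives and partners of the members (3 lower). Between double positive and CD45 single positive cells 0 genes of any of the 20 lists were called. The list medians of that contrast were 0.08 for monocyte and macrophage markers and -0.24 for stem and progenitor markers, against -0.06 over all genes, and -2.44 for B cell markers. The B cell markers summed to 5848 CPM in the CD45 single positive library described above and to 20.3 to 45.5 CPM in the other CD45 single positive libraries.

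**Figure D5:**
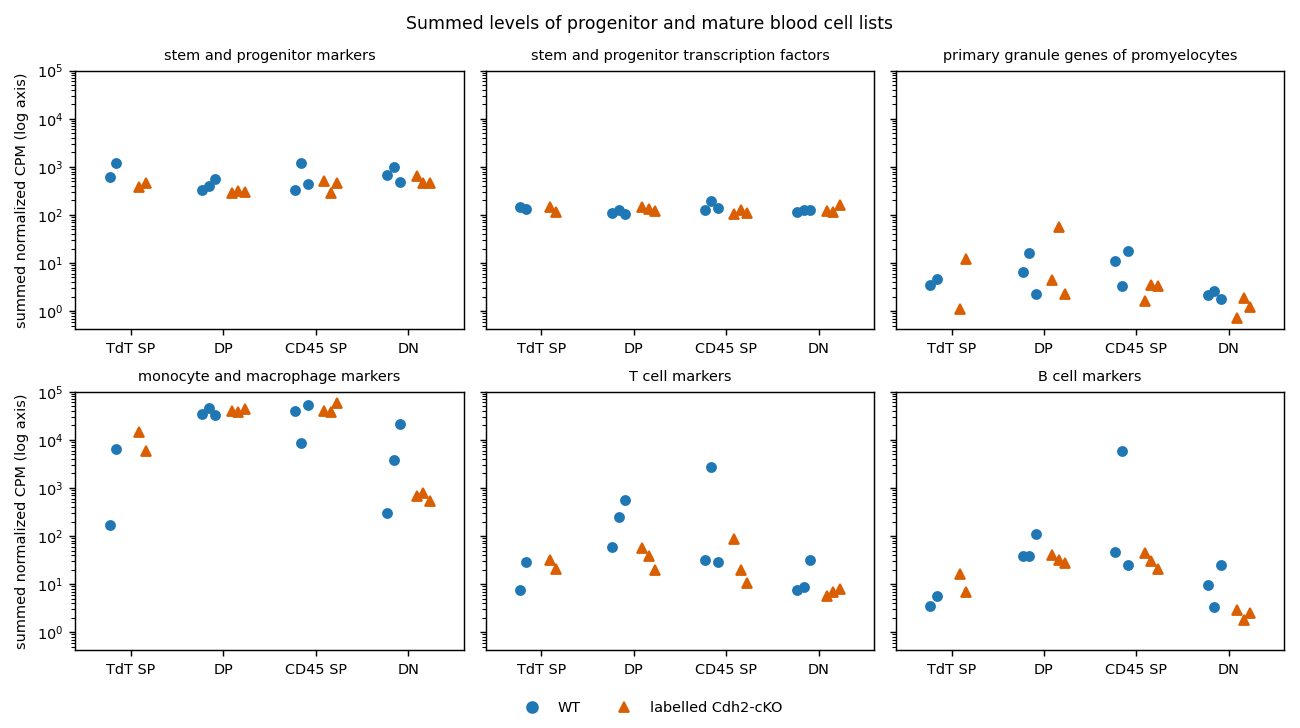
Summed normalized CPM (log axis, the same in all panels) of 6 marker lists in each library, by population, with circles for WT and triangles for mice labelled Cdh2-cKO. In double positive libraries the monocyte and macrophage markers sum to 32507 to 46187 CPM and the primary granule genes of promyelocytes to 2.22 to 56.3 CPM, and a single CD45 single positive library stands out for T and B cell markers (2684 and 5848 CPM).

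Within CD45- cells, TdTOSX single positive and double negative libraries were compared. Of the 9 members 0 were called, with 1.89% of all genes called (284 genes), 1.23% higher in TdTOSX single positive cells. The libraries overlapped for all 9, and did not for 4.87% of all genes. The largest differences were 1.35 for Tal1 (adjusted p = 0.426), 1.34 for Cebpe (adjusted p = 0.574), 1.21 for Spi1 (adjusted p = 0.439), -1.16 for Gata3 (adjusted p = 0.347) and 1.07 for Cebpa (adjusted p = 0.181). Without WT double negative replicate 3, Ikzf1 (2.27, adjusted p = 0.0229) and Cebpa (1.6, adjusted p = 0.0212) were called higher in TdTOSX single positive cells, and without WT double negative replicate 1, Runx1 was (0.76, adjusted p = 0.0353). Spi1 turned to -1.74 and Tal1 to -0.66 without WT TdTOSX single positive replicate 2. Ptprc, at 2.45, 81.2, 164 and 89.9 CPM in TdTOSX single positive cells and 4.46, 38.6, 337, 9.31, 15.7 and 10.8 CPM in double negative cells, was highest in the double negative library in which Spi1, Ikzf1 and Cebpa were highest. Its part in the differences was not tested.

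Mice labelled Cdh2-cKO were compared with WT mice within each population, with the reserve that Cdh2 itself was not lower under that label in CD45- cells. In double positive, CD45 single positive and double negative cells 0 members and 0% of all genes were called, with 515, 1474 and 1441 genes at an unadjusted p under 0.05, and in TdTOSX single positive cells 0 members and 0.00666% of genes, a single gene (1576 at an unadjusted p under 0.05). In double positive cells Gata3 was at 3.04, 1.99 and 3.49 CPM under the Cdh2-cKO label and at 6.42, 9.59 and 23.6 CPM in WT mice, without overlap, as for 12.8% of all genes. Its log2 fold change was -2.22 (interval from -4.03 to -0.42, unadjusted p = 0.0188, adjusted p = 1 by edgeR). Cd3e, a T cell gene, had 11.3, 5.92 and 4.21 CPM and 9.21, 35.7 and 89.6 CPM in the same libraries, and its part in the Gata3 difference was not tested. The other members differed in double positive cells by between -0.27 (Cebpb) and 0.36 (Cebpa) on the log2 scale, and their libraries overlapped.
In double negative cells Spi1 (-3.36, adjusted p = 0.239), Ikzf1 (-3.48, adjusted p = 0.18) and Cebpa (-2.19, adjusted p = 0.18) had lower values under the Cdh2-cKO label. Without WT double negative replicate 3, the library with 337 CPM of Ptprc, the values were -1.47, -1 and -1.1 and 0 members were called. Without WT double negative replicate 1 all 3 were called (-3.93, -4.04 and -2.54, adjusted p = 0.0364, 0.0152 and 0.019), as they were with DESeq2. The Cebpa libraries did not overlap, as for 9.22% of genes. In CD45 single positive cells the Ikzf1 libraries did not overlap, as for 10.1% of genes (log2 fold change -1.35, adjusted p = 0.614). In TdTOSX single positive cells Cebpb and Cebpe did not overlap, as for 42.1% of genes. Cebpe there had 0 and 1 counts in WT and 19 and 18 counts in Cdh2-cKO libraries (adjusted p = 0.302), and the Ptprc values of those libraries are those given above.

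The genes whose levels were most like those of a member over the 22 libraries were sought by Pearson r of log2 CPM, as a description in which libraries of the same population share most of their transcripts. They were Tyrobp, Apoc2 and Sirpb1b for Spi1 (0.989, 0.988 and 0.988), Dock10, Lcp2 and Syk for Ikzf1 (0.992, 0.987 and 0.987), and Abhd12, Rgs10 and Sirpa for Cebpa (0.983, 0.978 and 0.978). For Cebpe they were Stat4, Evl and Xlr4b (0.955, 0.948 and 0.945), and for Cebpb Lrrfip2, Mcl1 and Wdr26 (0.954, 0.947 and 0.939). Gata2 was nearest to Slc4a4, Meis1 and Asap2 (0.973, 0.966 and 0.965), Gata3 to Itga2, Spin2c and Styk1 (0.92, 0.919 and 0.907) and Runx1 to Clec11a, Rab15 and Atp11a (0.923, 0.92 and 0.912). Tal1 had the lowest values, with Cetn4, Naglu and Hint2 (0.862, 0.857 and 0.851). Among the members themselves, r over the 22 libraries was 0.93 for Spi1 with Ikzf1 and 0.91 for Spi1 with Cebpa, and -0.76 for Spi1 with Gata2. Within the 12 CD45+ libraries Spi1 with Ikzf1 had -0.51 and Spi1 with Cebpa 0.66, so that the first relation did not keep its sign among leukocytes, where the library with B and T cell transcripts had the highest Ikzf1 and the lowest Spi1 and Cebpa. Tal1, also lowest in that library, had 0.83 with Spi1, 0.86 with Cebpa and -0.7 with Ikzf1 within those 12 libraries.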

How the data were processed

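RNA from sorted tumor stroma was amplified from low input with a SMARTer kit and sequenced as single-end reads. Per the labels and methods, the authors aligned reads to GRCm38 with STAR (2.0.4b in the submitters' processing notes) and obtained counts per gene with featureCounts (1.45 in those notes). The deposited tables of each library hold these counts beside CPM and RPKM values that the authors computed from them. The deposited CPM and RPKM followed from the counts to a relative deviation of at most 5.1e-14, and only counts entered the tests. Per-sample columns left unused numbered 0. No strand setting is given in the sources used here, so reads of overlapping antisense genes cannot be told apart.

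From the 41388 genes, 355 that encode ribosomal RNA were left out, a gene had to exceed 1 CPM in 2 or more libraries, and the remaining 15018 were tested with edgeR 4.0.16 (R 4.3.3), using TMM scaling and the quasi-likelihood test over 8 groups and 22 libraries, in 11 contrasts, two-sided, with Benjamini-Hochberg adjustment over all genes and a threshold of 0.05. Standard errors were derived from the F statistic. The labels do not say that libraries come from separate mice, so p-values measure the spread between libraries, which may be technical. Alternatives were voom with quality weights (limma 3.58.1), DESeq2 1.42.0, its size factors within edgeR, other filters, the replicate number as a block, leaving out each library, leaving aside the 2 WT libraries that stand apart, and only the libraries of 1 genotype. The test was tried on simulated data. The text names the 10 members, Ptprc, Sp7 and Cdh2, genes of 20 lists (176 genes) by level or call, and the 3 genes nearest to each member. Ccr3, Prg2, Siglecf, Epx and Duoxa2, and some list genes beyond the rule's limit of 4 a list, were chosen after their values were seen. Members and lists were chosen with earlier results of these data known. Start-site windows came from RefSeq (GRCm38.p6). A few marker genes of the lists are not reported here by name.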

Additional observations from a re-analysis of the deposited data

Results flagged for a closer look

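In each population the libraries of both genotypes were searched for a member whose highest or lowest library lay apart from the others (Dixon's test), and 12 of 40 combinations did. The nominal rate of about 1 in 20 assumes normal values and separate combinations. CPM values near 0 and members sharing the same libraries do not meet this, so the count is no measure of excess. In WT CD45 single positive replicate 2, Ikzf1 was at 251 CPM (others 42.5 to 75.2), Gata3 at 40.7 (others 2.24 to 9.1), Gata1 at 19 (others 0 to 0.494), Cebpe at 6.36 (others 0.902 to 1.94) and Cebpa at 10.1 (others 34.2 to 44.6). This is the library with B and T cell transcripts. In WT double negative replicate 3, the library with 337 CPM of Ptprc, Spi1 was at 17.3 CPM (others 0.208 to 3.63), Ikzf1 at 34.4 (others 0.781 to 3.94), Cebpa at 21.5 (others 1.55 to 5.32) and Cebpe at 0.33 (others 0 to 0.102). In WT double positive replicate 3, Gata3 was at 23.6 CPM (others 1.99 to 9.59) and Gata1 at 0.581 (others 0 to 0.0594), beside 562 CPM of T cell markers. In WT CD45 single positive replicate 3, Spi1 was at 63.4 CPM (others 14.4 to 32.4). All 12 values came from WT libraries, and their causes were not tested.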

How the results depend on the processing

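Of 1568 recomputed values of 54 results, 1505 kept their direction and their side of the threshold, or stayed within 1.5 times for counts. The number of members called between TdTOSX single positive and double negative cells was 0, with voom 1 (Cebpa), with the 2 libraries that stand apart left aside 2 (Ikzf1 and Cebpa), and without 1 library 0 to 2. Between genotypes in double negative cells it was 0, with DESeq2 3 (Spi1 -3.26, Ikzf1 -3.39 and Cebpa -2.11), and without 1 library 0 to 3. Between double positive and CD45 single positive cells, uncalled values changed sign with voom for Gata3 (0.73), Tal1 (-0.09) and Cebpa (-0.01), and with the 2 libraries aside for Gata3 (0.64), Tal1 (-0.23), Ikzf1 (0.04), Cebpa (-0.1) and Cebpe (0.18). Between genotypes in CD45 single positive cells Gata3 changed to 0.22 with voom and 0.87 with the 2 libraries aside. The cause was not tested.

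Without 1 library, values for double positive against CD45 single positive cells ran from -0.01 to 0.15 (Runx1), -0.93 to 0.64 (Gata3), -0.23 to 0.54 (Tal1), -0.54 to 0.04 (Ikzf1), -0.1 to 0.25 (Cebpa), -0.39 to 0.01 (Cebpb) and -0.59 to 0.18 (Cebpe). For TdTOSX single positive against double negative cells they ran from -1.74 to 2.15 (Spi1), -0.92 to 0.09 (Gata2), -0.66 to 1.94 (Tal1) and -0.04 to 2.27 (Ikzf1), and for Gata3 between genotypes in CD45 single positive cells from -2.16 to 0.88.

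Same-numbered libraries of a genotype correlated in their deviations from the group means with r from -0.296 to 0.593 (median 0.05, 10 of 30 pairs over 0.1), and differently numbered ones with a median of -0.02 (6 of 60 pairs over 0.1). The labels name no shared mouse or day, so the numbers were not taken as pairs, although some same-numbered libraries deviated together. These correlations cannot settle whether the numbers are pairs, since deviations from a group mean offset each other within the group. With the number as a block, Runx1 (-0.45, adjusted p = 0.0648) and Gata3 (-1.21, adjusted p = 0.0675) were no longer called in double positive cells against the other 3 populations, and no other call of a member changed. There, leaving out WT TdTOSX single positive replicate 1, WT double positive replicate 1 or 3, or Cdh2-cKO TdTOSX single positive replicate 2 or double positive replicate 1 or 3 ended the call of Runx1 (adjusted p up to 0.0951). Leaving out WT TdTOSX single positive replicate 2, WT double positive replicate 1 or 2, Cdh2-cKO TdTOSX single positive replicate 1 or any Cdh2-cKO double positive library ended that of Gata3 (adjusted p up to 0.0814). Without the filter Runx1 was at -0.5 (adjusted p = 0.0514). Tal1 was called with voom (1.33, adjusted p = 0.034) and without WT TdTOSX single positive replicate 2 (1.84, adjusted p = 0.0183).

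Over all genes, calls between TdTOSX single positive and double negative cells numbered 284, from 30 to 878 without 1 library and from 92 to 1509 otherwise. Between genotypes they ran from 0 to 134 in TdTOSX single positive (1 as reported), 0 to 1 in double positive, 0 to 26 in CD45 single positive and 0 to 604 in double negative cells (0 as reported), and between double positive and CD45 single positive cells from 1 to 6 (1 as reported). Levels under 3 counts limit Gata1, Cebpe and Tal1 in CD45- cells.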
